A study of Mus musculus with 50 samples.

Results

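The Hox genes are transcription factor genes that give segments along the head-to-tail axis their identity. The 33 listed here were taken by name: their probe sets in the array annotation, and for each gene the probe set with the highest mean log2(intensity + 1) over all arrays, kept when that value was above log2 4 in 2 or more of the 50 arrays. Of the 33 genes, 29 had a probe set annotated to them alone and 17 of those passed the filter, among 11204 genes that passed it of 18193 named on the array. Hoxb8 and Hoxd4 had only probe sets shared with a neighbouring Hox gene, and no value is given for them. Hoxa6 and Hoxc11 were not analysed here.

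The tissue was the dorsal root ganglion (DRG), the cluster of sensory neuron cell bodies beside the spinal cord, of naive wild-type mice aged 2 months. There were 25 inbred strains, named here as the labels spell them, with 1 male and 1 female array per strain and RNA of 3 mice pooled on each. The groups are therefore the strains, each with 2 pools that differ in sex, and the sexes, each with 25 pools. Pooled animals hide the spread between mice, and the labels do not say which spinal levels were dissected. The number of arrays limits the precision of every value below. In a bulk tissue, fewer cells of a type and less RNA per cell cannot be told apart. All levels are log2(intensity + 1) of 1 probe set and are compared only between arrays, never between genes.

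In vertebrates the Hox genes lie in 4 clusters, Hoxa to Hoxd, and each gene has a paralogue number from 1 to 13. Genes with low numbers are switched on early and up to the hindbrain, and genes with high numbers later and only towards the tail, so that the combination in a cell records its level along the axis. Sensory neurons and glia of the ganglia come from the neural crest and keep part of this code into adult life, while Hox proteins bind DNA together with Pbx and Meis cofactors and their on or off state is held by Polycomb and Trithorax proteins.

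The arrays carried the mark of ganglia: all 11 sensory neuron markers with a probe set, among them the ion channel gene Scn10a and the transcription factor gene Isl1, passed the filter. Between 18673 and 19228 probe sets an array were above log2 4. The lowest intensities ran between 1.629 and 1.655 on male arrays and between 1.726 and 1.744 on female arrays, with no overlap, and no label says whether male and female arrays were processed together. Signal went against the sex label on 8 arrays. Xist, transcribed from the inactive X chromosome of females, was above log2 4 on 7 of the 25 male arrays, namely PL/J (8.97), BTBT T+tf/J (7.78), SWR/J (6.73), NON/LtJ (5.42), NZW/LacJ (5.27), NOD/LtJ (5.19) and c57BL/6J (4.98), against a median of 2.94 over male arrays. The Y-linked Eif2s3y was above it on 1 female array, SM/J, at 6.82. Results are also given without these arrays, or without SM/J and PL/J, where that changed a call.

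Of the 29 genes 8 were above log2 4 in all 50 arrays. They were the anterior Hoxd1, Hoxb3, Hoxa5 and Hoxb5, the middle Hoxa7 and Hoxd8, and the posterior Hoxa9 and Hoxd9. Another 4 were above it in most arrays, namely Hoxc4 in 48, Hoxc8 in 47, Hoxb6 in 46 and Hoxa10 in 43. For Hoxc4, 11 male and 15 female arrays lay within 0.05 of their sex's median, 4.57 in males and 4.68 in females. For Hoxb6, 13 male and 16 female arrays did so, at medians of 4.11 and 4.32. These numbers were 5 and 2 for Hoxc8 and 6 and 4 for Hoxa10. Many Hoxc4 and Hoxb6 values may therefore be a floor above log2 4, and their array counts are no proof of expression. Hoxa9, a gene of the lower trunk level, lay between 7.73 and 9.60 over all arrays, with a median of 8.84 in males and 8.91 in females. Hoxa10, known for patterning the lumbar region and hind limb, had a lowest, median and highest level of 3.85, 4.40 and 5.27 in males against 3.53, 4.18 and 5.25 in females. The sexes overlapped fully for both genes.

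A further 5 genes passed the filter without a high level in most arrays. Hoxc6, a gene of forelimb-level motor neurons, and Hoxc10, a gene of lumbar-level motor neurons, were above log2 4 in all 25 male arrays and in 0 of 25 female arrays. Hoxc10 had its median at 4.22 in males and 3.12 in females, and 18 arrays of each sex lay within 0.05 of that sex's median, so most values formed a narrow floor that stood at a different height in each sex. Hoxa3 was above log2 4 in 3 arrays and Hoxb4 in 2, both genes of the hindbrain and neck. Hoxd10, a gene of lumbar-level motor neurons and the hind limb, was above it in 5.

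The other 12 genes with their own probe set did not pass: Hoxb1, Hoxa2, Hoxb2, Hoxd3, Hoxa4, Hoxc5, Hoxb7, Hoxb9, Hoxc9, Hoxa11, Hoxd11 and Hoxb13. The nearest to the filter was Hoxd3, which exceeded log2 4 in 1 array, a female one at 4.10, and 11 exceeded it in none. By paralogue number, 7 of 13 measured genes of groups 1 to 5 passed, 5 of 6 of groups 6 to 8 and 5 of 10 of groups 9 to 13. Hoxb13 stayed between 2.91 and 3.22 and Hoxa11 between 2.45 and 2.54. A low value on an array is no proof that a gene was off. In the Hox genes outside the list that had a probe set, Hoxa13, Hoxc13, Hoxd12 and Hoxd13, the highest value of any array was 3.62, so none of them passed.

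**Figure D1:**
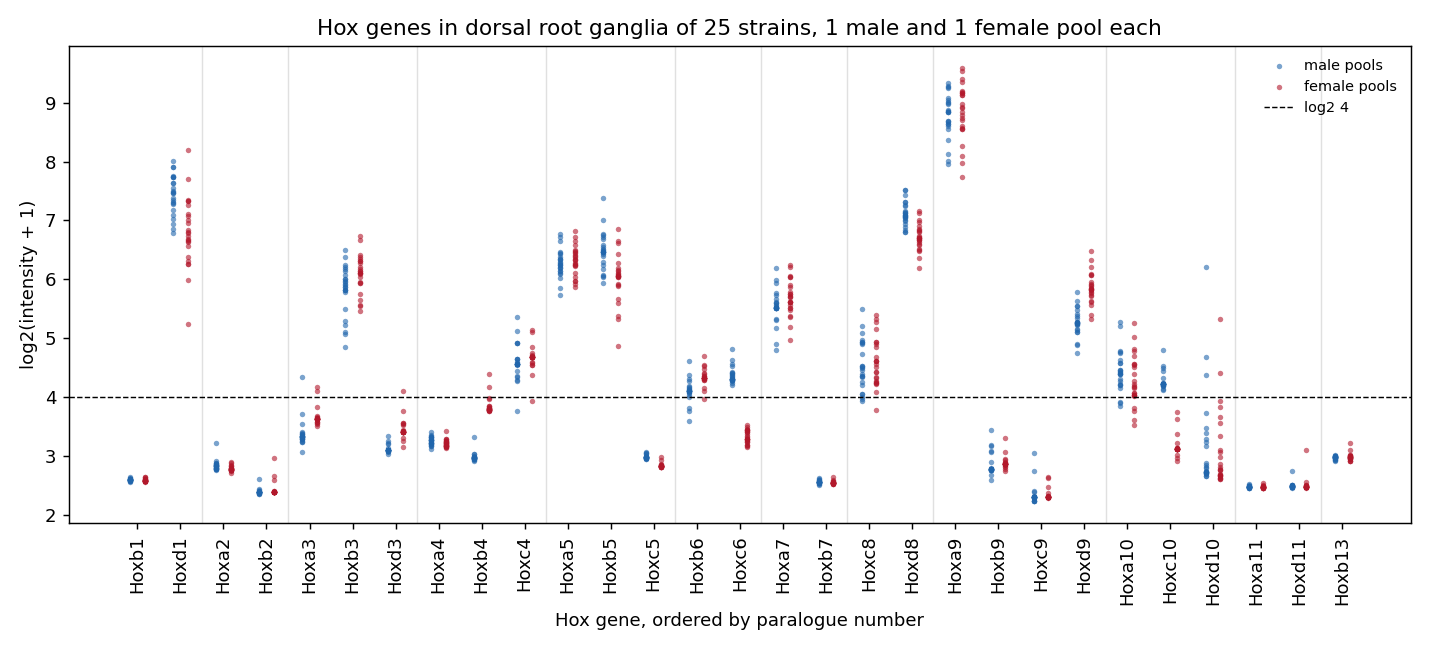
Level of the 29 Hox genes with a probe set of their own, log2(intensity + 1), ordered by paralogue number along the x axis, with 1 point per pool (male left and blue, female right and red) and the filter level of log2 4 dashed. Hoxa9, Hoxd1 and Hoxd8 stayed above the line in all 50 arrays, while Hoxc6 and Hoxc10 lay above it in males and below it in females.

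Strain differences were tested with limma's moderated F test over the 25 strain means, with sex as a further term, and 4 of the 17 genes were called at a Benjamini-Hochberg adjusted p under 0.05. The background was 26.1% of all genes tested, so the share of Hox genes called was near it. The called genes were Hoxd1 (adjusted p = 0.0169, limma), Hoxd10 (0.0237), Hoxa7 (0.0258) and Hoxb5 (0.0388). Without the 8 arrays whose signal went against their sex label, an alternative chosen after seeing the data, 1 of the Hox genes was called, Hoxa7 (adjusted p = 0.0277, limma), while Hoxd1 had an adjusted p of 0.0831, Hoxb5 of 0.161 and Hoxd10 of 0.386. The share of all genes called in that smaller fit is not given here. The strain means of Hoxd1, Hoxd10, Hoxa7 and Hoxb5 spanned 2.04, 3.10, 1.07 and 1.41 log2 units, in that order. The median span was 0.83 over the 17 Hox genes and 0.82 over all genes tested. The median correlation between the male and the female pools of the strains was 0.07 over the Hox genes and 0.26 over all genes, each over 25 strains.

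The replicates of a strain are pools of opposite sex, and nothing in the labels describes further replicates, so p-values measure the spread between these pools only. The 13 genes that were not called included Hoxb3 (adjusted p = 0.115, limma) and Hoxb6 (adjusted p = 0.151), and the highest was 0.924 for Hoxb4.

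Each strain was then compared with the mean of the other 24 in the same fit, and a difference was called when its adjusted p over all probe sets and strains was under 0.05 and its size at least 1 log2 unit. Of all gene and strain combinations tested, 0.854% were called, and 9.93% of genes had at least 1 called strain. Among the Hox genes 2 of 17 had one: Hoxd10, higher in NON/LtJ, and Hoxd1, lower in C3H/HeJ. In NON/LtJ 0.473% of genes were called higher, and in C3H/HeJ 0.473% were called lower. Without the size limit 5 of the 425 combinations of a Hox gene and a strain were called (1.18%), against 3.21% of all combinations.

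Hoxd10 measured 6.21 in the male and 5.33 in the female NON/LtJ pool. In the other 24 strains the lowest, median and highest levels were 2.65, 2.77 and 4.68 in males and 2.602, 2.77 and 4.42 in females. Both NON/LtJ pools therefore lay above every other pool of their sex, and 16 of the 24 other pools of each sex were below log2 3. Of all genes tested, 0.357% were highest of the 25 strains in both NON/LtJ pools, and of the 17 Hox genes Hoxd10 was. The mean was 5.77 ± 0.63 (SD, n = 2 pools) in NON/LtJ and 3.03 ± 0.34 (SD over 24 strain means) in the others, a difference of 2.73 ± 0.39 log2 units (SE, limma, adjusted p = 2.79e-05). With a pseudocount of 16 in place of 1 the difference was 1.57 (adjusted p = 6.93e-07, limma), so its size depends on the offset, since most other pools sat at the floor. The male NON/LtJ array was 1 of the 8 whose signal went against the sex label. Without it the difference was 2.31 (adjusted p = 0.0138, limma), without all 8 arrays 2.39 (adjusted p = 0.0167), and without the female pool 3.16. Over all leave-one-out fits the highest adjusted p was 0.0138 (limma).

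The strain F test of Hoxd10 rested on this strain. Without NON/LtJ its adjusted p was 0.766 (limma), without the male NON/LtJ pool 0.283 and without the female pool 0.0937. Besides NON/LtJ, 3 arrays had Hoxd10 above log2 4, the male BUB/BnJ pool at 4.68, the female SM/J pool at 4.42 and the male C3H/HeJ pool at 4.37. The other pool of BUB/BnJ was at 2.602, the lowest of the 25 females, and the other pool of C3H/HeJ at 2.86. NOD/LtJ, whose pools measured 3.72 and 3.94 (male and female), had the second highest strain mean, 3.83.

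Hoxd11, which lies next to Hoxd10 in the Hoxd cluster and is known for shaping the limb and the lower spine, did not pass the filter. Its NON/LtJ pools measured 2.75 (male) and 3.11 (female), while the other strains ran between 2.46 and 2.51 in males and between 2.46 and 2.56 in females. Both pools were again above every other pool of their sex, by 0.44 log2 units in the mean. With no filter on low values the adjusted p of this difference was 4.67e-08 (limma), on probe sets of which most sit at a floor.

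The promoters of both genes are printed here because both were highest in NON/LtJ, along with those of Hoxd1, which differed in C3H/HeJ, and of Hoxa9 and Hoxa10, whose levels are set against each other below. Each is 300 bases of the RefSeq reference (build GRCm38.p6), 250 before and 50 after the start, read 5′ to 3′ on the gene's strand, and carries no strain's own variants. The table held a promoter for 19 of the 33 genes. For Hoxd11 and Hoxa10, which have 2 starts, the one listed first is shown.
Hoxd10 (chr2:74691641-74691940, plus strand): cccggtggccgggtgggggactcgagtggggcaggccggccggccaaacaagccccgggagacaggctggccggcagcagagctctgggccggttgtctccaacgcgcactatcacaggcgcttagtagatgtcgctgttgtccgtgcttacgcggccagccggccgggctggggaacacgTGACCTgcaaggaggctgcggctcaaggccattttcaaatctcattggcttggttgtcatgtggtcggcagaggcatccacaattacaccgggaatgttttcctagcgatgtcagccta
Hoxd11 (chr2:74679308-74679607, plus strand): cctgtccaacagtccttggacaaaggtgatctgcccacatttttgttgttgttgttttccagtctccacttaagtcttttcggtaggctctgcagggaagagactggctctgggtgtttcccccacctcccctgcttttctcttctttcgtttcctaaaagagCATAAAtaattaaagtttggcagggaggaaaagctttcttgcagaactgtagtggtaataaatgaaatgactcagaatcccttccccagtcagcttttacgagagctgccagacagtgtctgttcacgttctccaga
Hoxd1 (chr2:74762730-74763029, plus strand): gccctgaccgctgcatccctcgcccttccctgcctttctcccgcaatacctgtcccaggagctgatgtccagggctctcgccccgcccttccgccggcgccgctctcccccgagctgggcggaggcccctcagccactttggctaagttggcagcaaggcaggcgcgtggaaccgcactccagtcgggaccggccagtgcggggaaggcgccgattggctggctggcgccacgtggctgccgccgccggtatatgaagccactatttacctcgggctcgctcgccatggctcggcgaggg
Hoxa9 (chr6:52227321-52227620, minus strand): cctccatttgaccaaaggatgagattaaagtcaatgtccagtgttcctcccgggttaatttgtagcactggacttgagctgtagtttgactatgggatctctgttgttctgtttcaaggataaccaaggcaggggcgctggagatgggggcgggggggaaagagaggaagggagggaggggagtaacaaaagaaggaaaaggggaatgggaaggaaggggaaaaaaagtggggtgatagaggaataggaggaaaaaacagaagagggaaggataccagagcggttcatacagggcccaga
Hoxa10 (chr6:52240805-52241104, minus strand): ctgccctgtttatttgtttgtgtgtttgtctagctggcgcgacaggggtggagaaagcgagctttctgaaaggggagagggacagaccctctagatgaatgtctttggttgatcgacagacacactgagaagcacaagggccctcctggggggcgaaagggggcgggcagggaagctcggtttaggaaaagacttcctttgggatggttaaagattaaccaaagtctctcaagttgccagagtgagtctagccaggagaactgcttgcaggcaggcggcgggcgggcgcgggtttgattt
Capitals mark any match to 4 motifs, searched on both strands: TGATNNAT, a site of Hox proteins with Pbx, TTTATG, a site of posterior Hox and Cdx proteins, TGACAG, a Meis site, and AGGTCA, the core of retinoic acid receptor sites. No motif overlapped another in these 5 promoters. The Hoxd10 promoter held AGGTCA once, on the other strand, and the Hoxd11 promoter shown TTTATG once, on the other strand. The promoter at the second Hoxd11 start, not shown, held no TTTATG and TGATNNAT 1 time, on the other strand. No motif was found in these windows of Hoxd1, Hoxa9 and Hoxa10. Of all 32851 promoters in the table, 16.3% held AGGTCA, 11.9% TTTATG, 19.2% TGACAG and 8.85% TGATNNAT, and among the 21 promoters of the Hox genes 7, 5, 2 and 4 held them, in the same order.

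**Figure D2:**
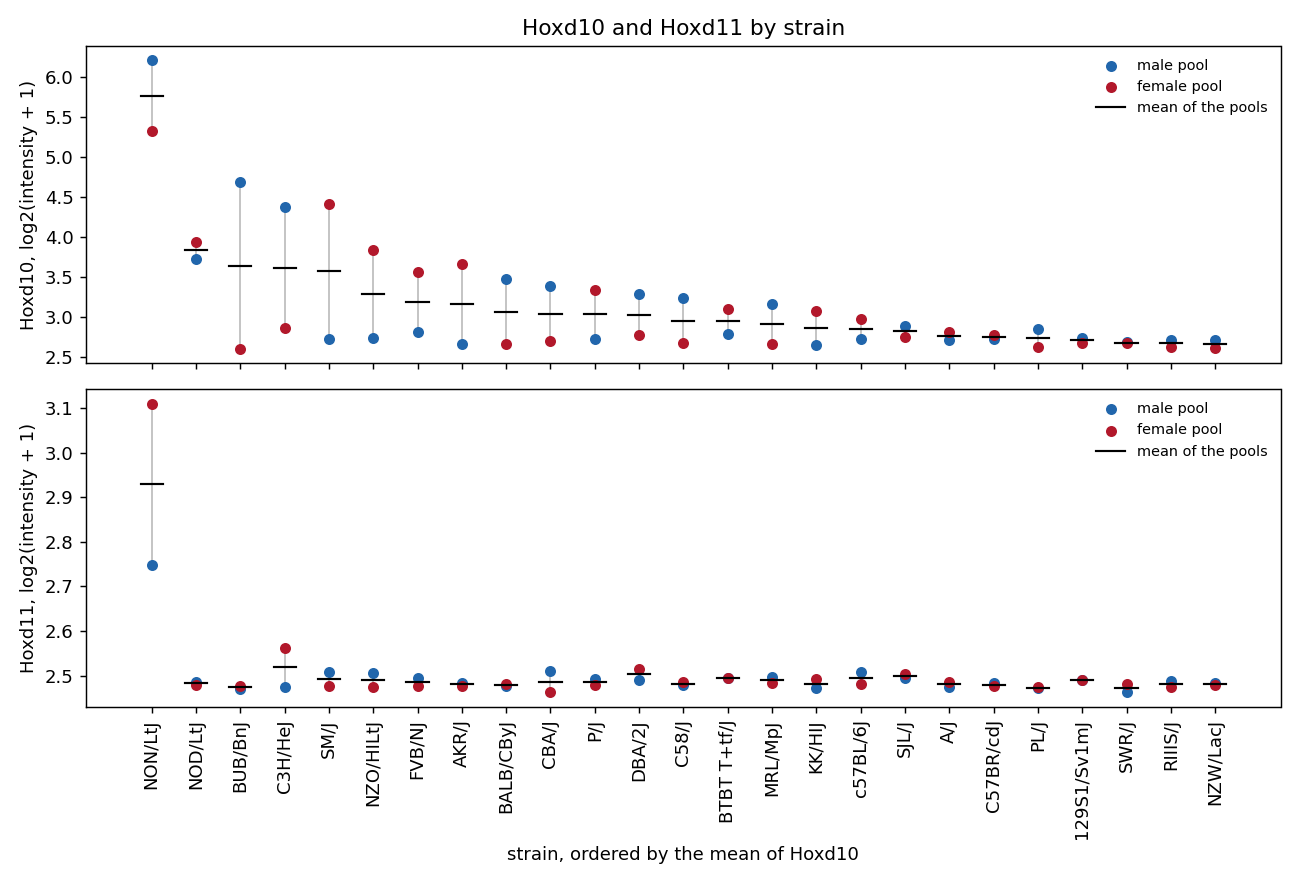
Level of Hoxd10 (top) and Hoxd11 (bottom), log2(intensity + 1), in the 25 strains ordered by the Hoxd10 mean, with the male pool in blue, the female pool in red and their mean as a black bar. NON/LtJ, at the left, had pools of 6.21 and 5.33 for Hoxd10 and of 2.75 and 3.11 for Hoxd11, above all other strains.

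NON/LtJ also had the highest strain mean of Hoxa9, Hoxd9, Hoxc8 and Hoxc4, and none of these passed the test. Hoxa9 measured 9.34 (male) and 9.35 (female) in NON/LtJ, against medians of 8.84 in males and 8.87 in females of the other strains, a difference of 0.56 log2 units (adjusted p = 0.396, limma). Hoxc8, a gene of forelimb-level motor neurons, measured 5.20 and 5.15 in NON/LtJ, 0.63 above the others (adjusted p = 0.254, limma). Hoxd9 stood 0.45 above (adjusted p = 0.17, limma) and Hoxc4 0.41 above (adjusted p = 0.313, limma). For Hoxc4 the male pool was 0.80 above the others of its sex and the female pool 0.02. That male array was 1 of the 8 whose signal went against the sex label. All 4 genes were within the range of the other strains in at least 1 sex.

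Not every posterior gene went with them. Hoxa10 was 0.05 above the other strains in the mean, with the male NON/LtJ pool 0.35 above and the female pool 0.26 below the others of its sex. Hoxc10 differed by 0.01 and the neighbouring Hoxd8 by 0.09. Of the 17 genes 13 had a positive difference in NON/LtJ, with a median of 0.12 log2 units. Of all genes tested 46.2% had one, with a median of -0.01. PL/J, the next strain by this count, had 11 of the 17, against 57.2% of all genes.

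Outside the cluster, 29 genes among the 60 gene positions on each side of the Hoxd genes were tested in NON/LtJ, and 1 was called: the RNA-binding protein gene Rbm45, lower by 1.21 log2 units (adjusted p = 0.0298, limma). Of all genes tested, 0.437% were called lower in NON/LtJ. Rbm45 was also higher by 1.45 log2 units in C3H/HeJ (adjusted p = 0.00685, limma). Lnpk and Mtx2, the genes flanking the cluster, differed by 0.18 and -0.19 log2 units.

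Markers of adjacent tissue are given beside this result. The summed intensity of 14 spinal cord genes was 168 in the male and 387 in the female NON/LtJ pool, against medians of 183 and 193 in the male and female pools of the other strains, and 5 of the 14 passed the filter. The sum of 8 skeletal muscle genes was 370 and 842, against 392 and 274, and that of 8 meninges and fibroblast genes 13539 and 20367, against 11429 and 13882. The female pool had rank 2 of 25 for spinal cord, 5 for muscle and 3 for meninges, and the male pool had ranks 19, 16 and 6. Male and female ranks were 5 and 5 for sympathetic ganglion, 2 and 11 for fat and 13 and 3 for blood. They were 22 and 21 for bone and cartilage and 22 and 17 for liver. For sensory neuron genes they were 11 and 24, and for glia 16 and 2. The part of these tissues in the Hoxd10 level was not tested.

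**Figure D3:**
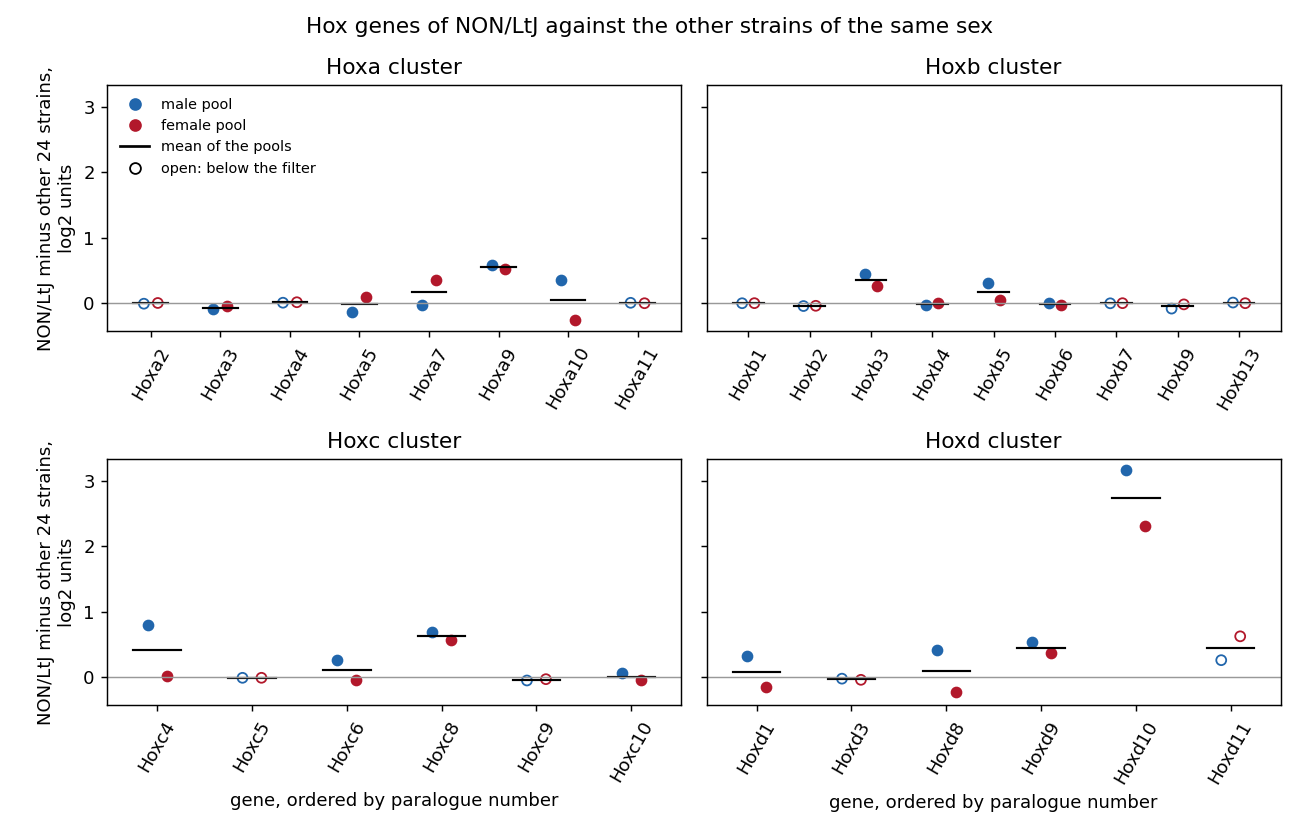
Difference between the NON/LtJ pool and the mean of the other 24 strains of the same sex, in log2 units, for each Hox gene by cluster and paralogue number, with the male pool in blue, the female pool in red, their mean as a black bar and open circles for genes below the filter. Hoxd10 stands at 3.16 in the male and 2.31 in the female pool, while Hoxd8 and Hoxa10 differ in sign between the pools.

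Hoxd1, an anterior gene that in mice is active in developing pain-sensing neurons and shapes their connections, was lowest in C3H/HeJ. Its pools measured 6.78 (male) and 5.24 (female), while the lowest, median and highest levels of the other strains were 6.86, 7.48 and 8.02 in males and 5.99, 6.79 and 8.20 in females. Both C3H/HeJ pools were below every other pool of their sex, the male pool by a small margin. The mean was 6.01 ± 1.09 (SD, n = 2 pools) in C3H/HeJ and 7.17 ± 0.35 (SD over 24 strain means) in the others, a difference of -1.16 ± 0.24 log2 units (SE, limma, adjusted p = 0.00389). Without the female pool it was -0.69 (adjusted p = 0.325, limma).

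Hoxb5, a gene of neural crest derivatives including the enteric nervous system, was likewise lowest in C3H/HeJ. It measured 5.94 (male) and 4.86 (female) in C3H/HeJ, against medians of 6.47 in males and 6.06 in females of the other strains, whose lowest pools were at 6.04 and 5.33. The pools were again the lowest of their sex, with a difference of -0.88 ± 0.20 log2 units (SE, limma, adjusted p = 0.00897) that did not reach the size of 1. Without the female pool it was -0.56 (adjusted p = 0.364, limma). Over all genes tested, 0.473% were lowest in both C3H/HeJ pools, and of the 17 Hox genes these 2 were.

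The other anterior genes did not go with them: Hoxb3 differed by 0.11, Hoxa5 by 0.04 and Hoxc4 by -0.13 log2 units in C3H/HeJ, none called. The strain had a summed intensity of 4 blood genes of 5416 (male) and 2427 (female), against medians of 587 and 426, the highest of 25 in both sexes. Of these genes S100a8 and S100a9 stood 2.79 and 3.09 log2 units above the other strains. Alas2, highest in NON/LtJ, stood 0.39 above, and Hba-a1, which did not pass the filter, 0.03. The sum of 4 liver genes was 404 (male) and 282 (female) in C3H/HeJ, against medians of 28.6 and 30.9, with ranks 3 and 4 of 25. The part of blood and liver in these levels was not tested. Without C3H/HeJ the strain F tests of Hoxd1 (adjusted p = 0.0593, limma) and Hoxb5 (adjusted p = 0.126, limma) were lost. Without SM/J and PL/J that of Hoxb5 had an adjusted p of 0.0575 (limma).

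At the other end, Hoxd1 was highest in P/J, at 7.90 (male) and 8.20 (female), against medians of 7.47 in males and 6.76 in females of the other strains. The difference of 0.96 ± 0.24 log2 units (SE, limma, adjusted p = 0.0197) stayed under 1. The female P/J array had the second highest Gapdh 3′ minus 5′ signal, a measure of RNA degradation, at 0.34 log2 units. Without that pool the difference was 0.48 (adjusted p = 0.564, limma), without the 8 arrays whose signal went against their sex label 0.95 (adjusted p = 0.0554), and with the Gapdh signal as a covariate 0.76 (adjusted p = 0.106). RIIIS/J, with 7.91 and 7.71, came second.

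The Gapdh signal was set against each Hox gene. The median absolute correlation was 0.17 over the 17 Hox genes and 0.24 over all genes tested. Over 50 arrays, each centred on its sex, its correlation with Hoxb5 was 0.57 and with Hoxa3 0.71, falling to 0.34 and 0.12 over the 48 arrays without the 2 of highest signal, male BTBT T+tf/J and female P/J. With Hoxd1 it was 0.31 and with Hoxd10 -0.05. With this signal in the model, 5 of the 17 genes were called for strain, near the background of 28.2% of all genes in that fit. In it Hoxd10 in NON/LtJ differed by 2.81 and Hoxd1 in C3H/HeJ by -1.14 log2 units.

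Hoxa7, a middle gene of the thoracic level, was lowest in KK/HIJ, at 4.91 (male) and 5.18 (female), against medians of 5.53 in males and 5.69 in females. The pools lay within the range of the other strains, whose lowest values were 4.80 and 4.97. Of the Hoxa7 values, 11 male and 3 female arrays lay within 0.05 of the median of their sex, so many male values may be a floor. The difference was -0.59 ± 0.16 log2 units (SE, limma, adjusted p = 0.0297), and it was lost when the male (adjusted p = 0.268, limma) or the female KK/HIJ pool (0.128) was left out, under quantile normalization (0.0672) and without the sex term (0.0919). The F test of Hoxa7 was lost without either KK/HIJ pool or without the male RIIIS/J pool, with adjusted p between 0.0521 and 0.0642 (limma).

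**Figure D4:**
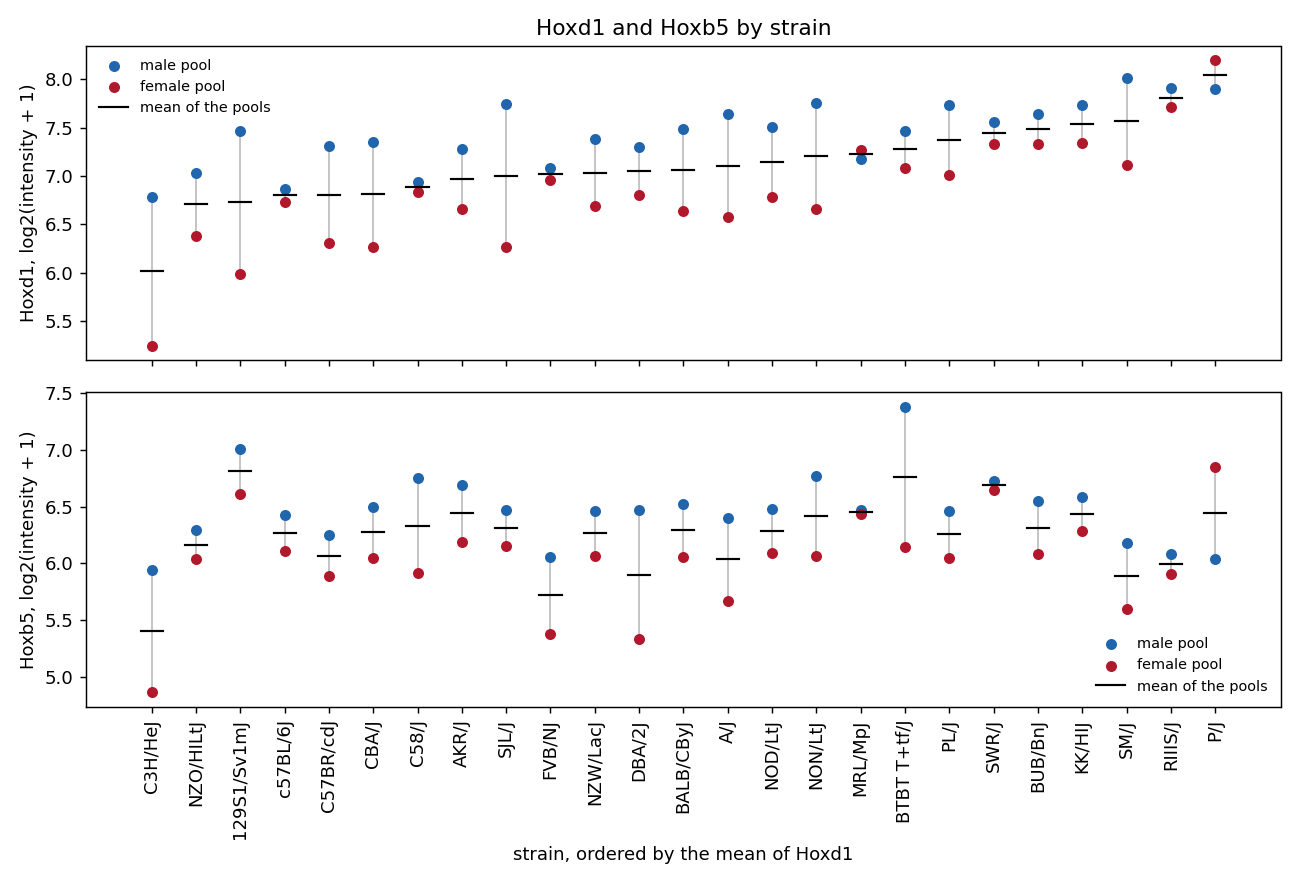
Level of Hoxd1 (top) and Hoxb5 (bottom), log2(intensity + 1), in the 25 strains ordered by the Hoxd1 mean from low to high, with the male pool in blue, the female pool in red and their mean as a black bar. C3H/HeJ, at the left, had the lowest pool of each sex for both genes, and P/J, at the right, the highest mean of Hoxd1.

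Whether anterior and posterior genes varied in opposite directions between pools was described by correlation over the 25 strains, once over the strain means and once over the difference between the male and the female pool. Array values share normalization and depth, so these are descriptions. Of the 136 pairs of the 17 genes, 90 were positive over strain means, with a median r of 0.10, and 103 over pool differences, with a median of 0.17. The medians over all pairs of genes tested were 0.02 and 0.03, and 52.8% and 54% of those pairs were positive.

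The 35 pairs of an anterior gene (groups 1 to 5) with a posterior one (groups 9 to 13) had a median r of 0.004 over strain means and 0.14 over pool differences. Hoxa3, Hoxb4 and Hoxd10 were above log2 4 in 3, 2 and 5 of 50 arrays, and most Hoxc10 values formed a floor. Pairs with these genes mostly compare floor values. No inverse relation showed in the medians, but they cannot exclude one. Within the posterior genes the 10 pairs had medians of 0.25 and 0.42, and all 10 were positive over pool differences. The same limit holds for those with Hoxc10 or Hoxd10. The mean of the posterior genes, each centred on its sex mean, went with that of the middle genes at r = 0.52 over 50 arrays and with that of the anterior genes at r = 0.25.

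The closest pair over strain means was Hoxa9 with Hoxd9, both genes of the lower trunk in different clusters, at r = 0.70, and 0.65 without NON/LtJ. Hoxc8 with Hoxa9 followed at 0.63 and Hoxb3 with Hoxc4 at 0.59. Over pool differences the closest was Hoxa9 with Hoxa10, neighbours in the Hoxa cluster, at r = 0.73. Hoxc4 with Hoxd10 stood at 0.66 and Hoxb3 with Hoxc4 at 0.65. Many Hoxc4 pools and most Hoxd10 pools sat near a floor, which limits what these values say of expression.

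Hoxa10 was then used as a covariate for all other probe sets in limma. It was taken because its probe set had the highest mean among those of groups 10 and above, which is a choice of probe set and says nothing of amounts between genes. Over pool differences the slope of Hoxa9 was 0.76 ± 0.14 (SE, r = 0.73, n = 25, limma, unadjusted p = 1.14e-05), and its adjusted p over 22204 probe sets was 0.197. Hoxb3 had r = 0.49 (adjusted p = 0.684, limma). Over strain means Hoxa9 had r = 0.44 (adjusted p = 0.769, limma). At an adjusted p under 0.05, 0 probe sets were called in either fit (0% of probe sets), with 1611 (7.26%) and 1374 (6.19%) at an unadjusted p under 0.05 over pool differences and strain means. Of the 16 other Hox genes, 2 and 1 reached that unadjusted level.

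**Figure D5:**
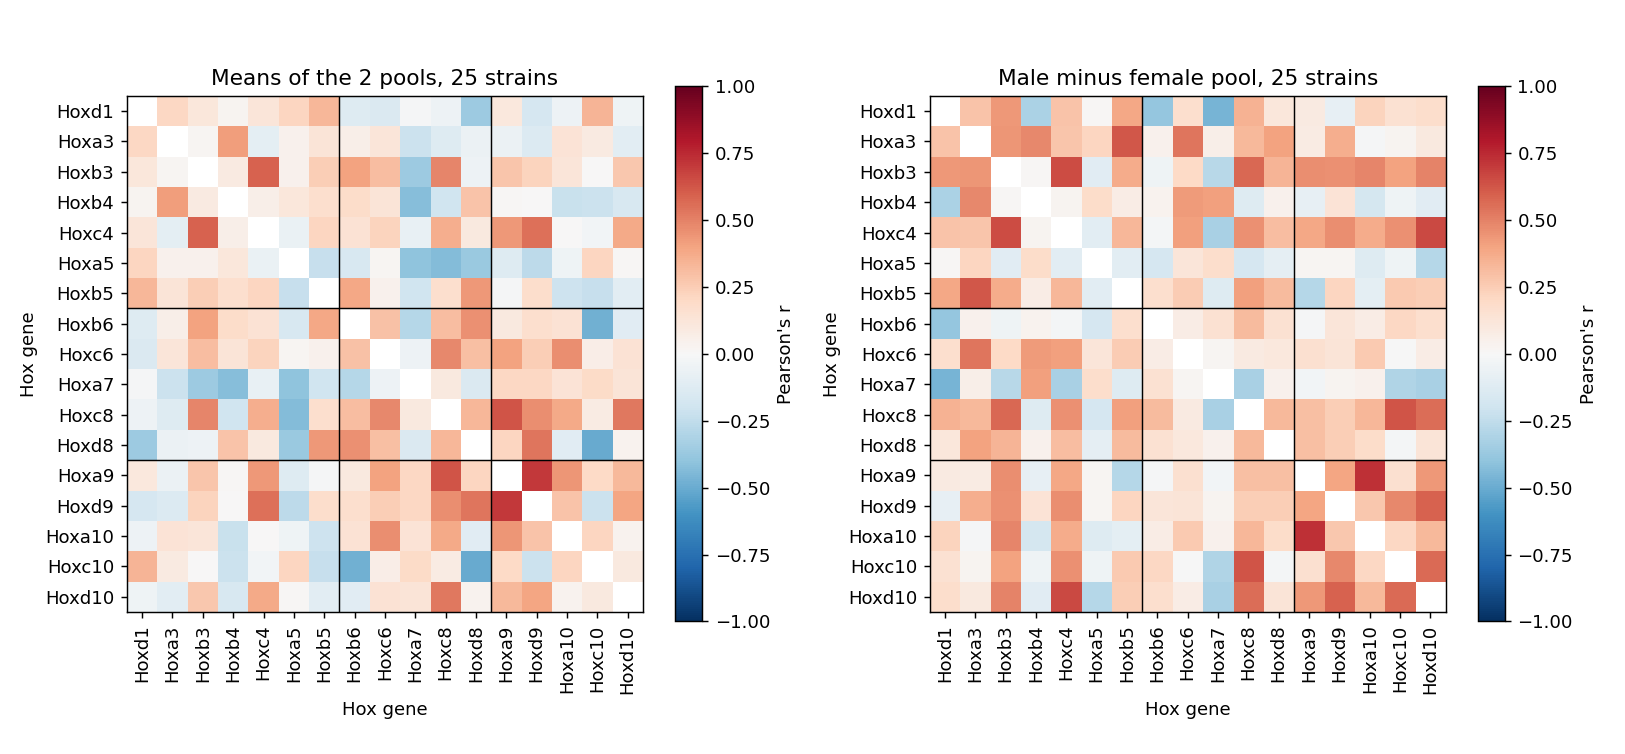
Pearson's r of each pair of the 17 Hox genes that passed the filter, over the means of the male and female pools (left) and over the male minus female differences (right) of 25 strains, with genes ordered by paralogue number and lines between groups 1 to 5, 6 to 8 and 9 to 13. The block of posterior genes at the lower right is positive for all 10 pairs in the right panel, and the closest pair there is Hoxa9 with Hoxa10.

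The posterior mean stood highest in NON/LtJ, 0.73 log2 units above the average array. Without Hoxd10 it was 0.26 there, close to RIIIS/J at 0.25 and to C57BR/cdJ and BALB/CByJ at 0.22 each. The posterior mean was lowest in NZW/LacJ, at -0.31 (-0.27 without Hoxd10). The posterior means of the male and female pools had r = 0.08 over 25 strains and -0.29 over 24 without NON/LtJ. The anterior mean was lowest in C3H/HeJ, at -0.26, followed by NZO/HILtJ and FVB/NJ at -0.22 each. The C3H/HeJ value includes the low Hoxd1 and Hoxb5 already described. The anterior mean was highest in P/J, at 0.22. In P/J it was -0.13 in the male and 0.58 in the female pool, the array of second highest Gapdh signal.

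Between the sexes 11 of the 17 genes were called (limma with strain as a block, adjusted p under 0.05), against a background of 59% of genes tested. Of these, 5 were higher in males, Hoxd1, Hoxb5, Hoxd8, Hoxc6 and Hoxc10 (background 24.7%), and 6 lower, Hoxa3, Hoxb3, Hoxb4, Hoxb6, Hoxa7 and Hoxd9 (background 34.3%). Hoxc6 and Hoxc10 passed the filter only through male arrays and Hoxb4 only through female arrays, so their calls restate the filter. Of the other 14 genes 8 were called, 3 higher and 5 lower in males. Hoxd1 averaged 7.44 ± 0.34 in males and 6.81 ± 0.59 in females (SD, n = 25 each), and was higher in the male pool of 23 of 25 strains. Hoxd9 averaged 5.27 ± 0.23 in males and 5.86 ± 0.26 in females, with the male pool higher in 1 of 25 strains. Given the different lowest values on male and female arrays, sex and normalization set cannot be told apart for any of these.

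Some genes had a second probe set above the filter, and it did not always follow the first. For Hoxb3 the leading probe set was 0.28 lower in males than in females, and the second 1.001 higher. For Hoxd8 the leading one was 0.40 higher in males and the second 0.23 lower, and over strain means they had r = 0.72. For Hoxa5, a gene of the neck level that is also needed in the lung, the 2 probe sets had r = -0.41 over the 25 strain means. The second was called for strain (adjusted p = 0.0437, limma) and the leading one was not (adjusted p = 0.602), and the name of the leading one marks probes that may also bind other transcripts. The strain differences of Hoxa5 are therefore uncertain.

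Genes that work with or on the Hox genes were described from lists, whose counts are set against the background of 26.1% of genes called for strain. None of the 7 Pbx, Meis and Pknox cofactor genes tested was called for strain, and Pbx3 spanned 1.28 and Meis2 1.11 log2 units (adjusted p = 0.0812 for Meis2, limma). Of 12 Polycomb genes 1 was called, the histone methyltransferase gene Ezh2, between 4.82 in C3H/HeJ and 3.60 in NZW/LacJ (adjusted p = 0.00823, limma). None of 8 Trithorax and insulator genes, 3 genes of axis signals and 1 hindbrain regulator was called. All 6 Cdx and ParaHox genes stayed below the filter. Of the noncoding genes in the clusters, Hoxb5os and Hoxd3os1 were tested and not called (adjusted p = 0.107 and 0.356, limma), and Hoxb5os, which lies beside Hoxb5, was lowest in C3H/HeJ, at 3.75, and highest in NON/LtJ, at 4.96.

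Of the retinoic acid pathway, a signal that helps to set Hox expression in the embryo, 5 of 7 genes tested were called for strain, against the background of 26.1%. Aldh1a1 and Aldh1a2, which make retinoic acid, spanned 2.46 log2 units (7.90 in FVB/NJ, 5.44 in SJL/J) and 2.35 (6.16 in NOD/LtJ, 3.81 in BTBT T+tf/J), with adjusted p of 0.0135 and 0.00293 (limma). The binding protein genes Crabp1 and Crabp2 spanned 1.31 and 1.40. Aldh1a3, chosen after its values were seen, was highest in NON/LtJ, at 4.48. Crabp2 is also in the list of meninges and fibroblast genes, of which 6 of 8 were called, the widest being Zic1, with 2.90 log2 units.

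Marker genes of other tissues and cells were described in the same way, against the same 26.1%. Of the genes tested in each list, 4 of 11 sensory neuron, 2 of 5 glia, 1 of 5 spinal cord, 1 of 2 sympathetic ganglion, 0 of 8 muscle, 1 of 1 bone and cartilage, 0 of 1 fat, 3 of 3 blood and 4 of 4 liver genes were called. Isl1, which specifies sensory neurons, was lowest in NON/LtJ, at 9.37, and highest in P/J, at 10.31 (adjusted p = 0.000419, limma). The other called sensory neuron genes did not share this order. Scn10a was lowest in P/J, at 9.00, and highest in BTBT T+tf/J, at 9.62, while Tac1 and P2rx3 had neither NON/LtJ nor P/J at an end. The muscle genes had a median span of 4.01 log2 units without a call.

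Over the 50 arrays, each centred on its sex, the genes most like Hoxa10 outside the Hox clusters were Slc16a1 (r = 0.54), Zic1 (0.52), Cdkn1b (0.52), Ddx3x and Glul (0.50 each), Atl3 (0.50), Trim23 (0.49), Snhg3 (0.49), Ergic1 (0.48) and Slc25a16 (0.48). The most opposed were Niban2 (-0.52), Phldb1 (-0.51), Sap30l (-0.51), Mien1 (-0.50) and Naa38 (-0.49). These values describe the arrays, which share their normalization.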

How the data were processed

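Per the submitters' processing notes, the authors used GCRMA (background correction and normalization) and R 2.6.2. The deposited file holds the resulting intensity of each probe set on each array on a linear scale. Whether the 50 arrays were normalized together is not given in the sources used here. From these, log2(intensity + 1) was computed, 64 control probe sets were left out, and the 22205 probe sets above log2 4 in at least 2 arrays entered linear models (limma 3.58.1, R 4.3.3, empirical Bayes moderation), with Benjamini-Hochberg adjustment over all of them. A gene was represented by its brightest probe set on average among those with no second symbol. Strains were compared by an F test with sex as a term, single strains against the mean of the other 24, sexes with strain as a block, and Hoxa10 entered as a covariate. The scripts were tested on simulated data. Named were all listed Hox genes, called list members with the widest span (at most 4 a list), and the 10 genes most like and 5 least like Hoxa10. The members and lists were chosen with earlier results of these data known. Alternatives were other pseudocounts, filters, quantile normalization, other probe sets and left-out arrays or strains. The labels give no replicate numbers, so the only pairing is the strain shared by a male and a female pool.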

Additional observations from a re-analysis of the deposited data

How the results depend on the processing

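The count of 4 Hox genes called for strain stayed between 3 and 5 with a pseudocount of 16, a filter above log2 5, quantile normalization, any probe set of the gene, the most variable probe set, without SM/J and PL/J, without the 2 arrays of highest Gapdh 3′ minus 5′ signal and, chosen after seeing the data, without NON/LtJ or with the Gapdh signal as a covariate. It was 1 with no filter on low values, where the gene was Hoxd11 (adjusted p = 0.00121, limma), 1 without the sex term (no replicate block), where it was Hoxd10, 2 without C3H/HeJ and 1, Hoxa7, without the 8 arrays whose signal went against their sex label, both added after seeing the data. Leaving out 1 array at a time gave between 2 and 5, with 2 reached without the male RIIIS/J or the female KK/HIJ pool. Hoxb5 lost its F test in 24 of the 50 leave-one-out fits, with adjusted p up to 0.105 (limma), and without SM/J and PL/J (0.0575), and Hoxa7 lost it under quantile normalization (0.076).

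The count of 2 Hox genes called in single strains was 1 with a pseudocount of 16, where Hoxd1 in C3H/HeJ differed by -0.98 log2 units, 1, Hoxd10, without the sex term (no replicate block; added after seeing the data), where the adjusted p was 0.17 for Hoxd1 and 0.179 for Hoxb5 in C3H/HeJ and 0.337 for Hoxd1 in P/J (limma), and 2 under quantile normalization, without those 8 arrays, without SM/J and PL/J and with the Gapdh signal as a covariate. Leaving out 1 array at a time gave between 1 and 3, with 1 reached without the female C3H/HeJ pool. Hoxd10 in NON/LtJ kept its call in all 50 such fits. The 11 genes called for sex numbered 10 without strain as a block (no replicate block), 15 with no filter and 10 or 11 in the other settings. No Hox gene was called against Hoxa10 under any setting run, and the r of Hoxa9 lay between 0.44 and 0.64 over strain means or single-sex pools and between 0.66 and 0.75 over pool differences. The strain differences named kept their sign under the alternatives run, while second probe sets turned the sex difference of Hoxb3 and Hoxd8.

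Pools of 3 mice, 2 for each strain, cannot separate strain from dissection, and sex is mixed with the set of arrays. Low probe sets sit at a floor that differs between probe sets and between male and female arrays, so their differences are bounded by it. This floor can lie above log2 4, as for Hoxc10 in males, with a median of 4.22. The spinal levels dissected are not recorded in the labels, and no value here measures them directly.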
